A study of Homo sapiens with 2 samples.

Results

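The genes that make cholesterol and fatty acids were examined in Ca9-22, a squamous carcinoma line of human gingiva, with cells carrying either a PTHLH vector or an empty vector. PTHLH encodes parathyroid hormone-like hormone, a secreted ligand of the receptor PTH1R. Both cell populations were made by stable transduction and selected with blasticidin, so the drug treatment is shared by the PTHLH and empty vector cells. Biotin-labelled cRNA from the total RNA of 1 PTHLH culture and 1 empty vector (EV) culture was hybridised to 1 Affymetrix U133 array each. A list of 34 genes was fixed by name, with 4 regulators, 17 genes of the cholesterol arm and 13 genes of the fatty acid arm. Of these, 29 had at least 1 probe set (a group of short oligonucleotides for a transcript) paired with that gene alone, out of 19775 genes measured in all. CYP51A1, ELOVL1 and FADS1 lie only on probe sets paired with 2 symbols, and FDFT1 and ACSL3 have no probe set named here, so these 5 genes are not analysed here.

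Cholesterol is built from acetyl-CoA through mevalonate, isoprenoid diphosphates and squalene, while fatty acids are built from the same acetyl-CoA by carboxylation to malonyl-CoA and repeated elongation. Both arms are under SREBP transcription factors, which are held in the endoplasmic reticulum by SCAP and INSIG proteins and released to the nucleus when sterol is scarce. SREBP-2, the product of SREBF2, acts mainly on the cholesterol arm, and SREBP-1, the product of SREBF1, mainly on the fatty acid arm. Carcinoma cells that divide need both products for new membrane.

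Intensities are on a linear scale in arbitrary units, and each difference is the PTHLH array minus the EV array on the log2 scale, taken from the gene's brightest probe set over both arrays. With 1 array per condition there is no replicate check, so no test was run and the variation of cultures is unknown. The only measure of error within the arrays is how far a gene's 2 brightest probe sets differ. Where both exceeded the array medians (5594 genes), this gave a log2 difference an SD of 0.20, called the probe set SD from here on, which says nothing of the spread of cultures. The median intensity was 19.4 on the PTHLH array and 19.5 on the EV array. All 29 measured genes lay above the median on both arrays, as 65.6% of all measured genes did. Of the markers of squamous epithelium, all 4 that were measured lay above both medians, with KRT5, a keratin of basal squamous cells, at 10228 on the PTHLH array and 7823 on the EV array. Markers of colon epithelium were measured because the samples' description text gives the cell line as CX-1 and the gene as RAB3C, unlike their titles, characteristics and the study's methods, which were followed. Of the 7 colon markers, 4 lay above both medians, and the 7 ranged between 7.75 and 37.1 on the PTHLH array and between 9.40 and 49.1 on the EV array. In bulk RNA, fewer cells that express a gene and less RNA per cell cannot be told apart.

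The lipid synthesis genes as a group stayed close to their EV level in the PTHLH cells. ACAT2, the cytosolic thiolase that starts the mevalonate pathway by joining 2 acetyl-CoA, was the only gene at least 1.5-fold higher, and ACSS2, which makes acetyl-CoA from acetate, was the only one at least 1.5-fold lower. The other 27 lay within 1.5-fold. A change of 1.5-fold, the threshold of the study's methods, was reached upward by 1.97% and downward by 3.52% of all genes, and by 2.5% and 4.36% of the 12982 genes above both array medians, so 1 gene of 29 in each direction is near the background. Small differences leaned downward: 20 of the 29 genes had a log2 difference below 0, against 47.0% of all genes and 48.6% of the genes above both medians, and the median over the 29 genes was -0.14, against 0 over either background. Differences larger than the probe set SD were downward in 8 genes (SREBF2, TM7SF2, STARD4, FASN, ELOVL6, ACSL1, ACSL4 and ACSS2) and upward in 2 (ACAT2 and FADS2), where the genes above both medians had 22.8% and 22.0% past the same limits.

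**Figure D1:**
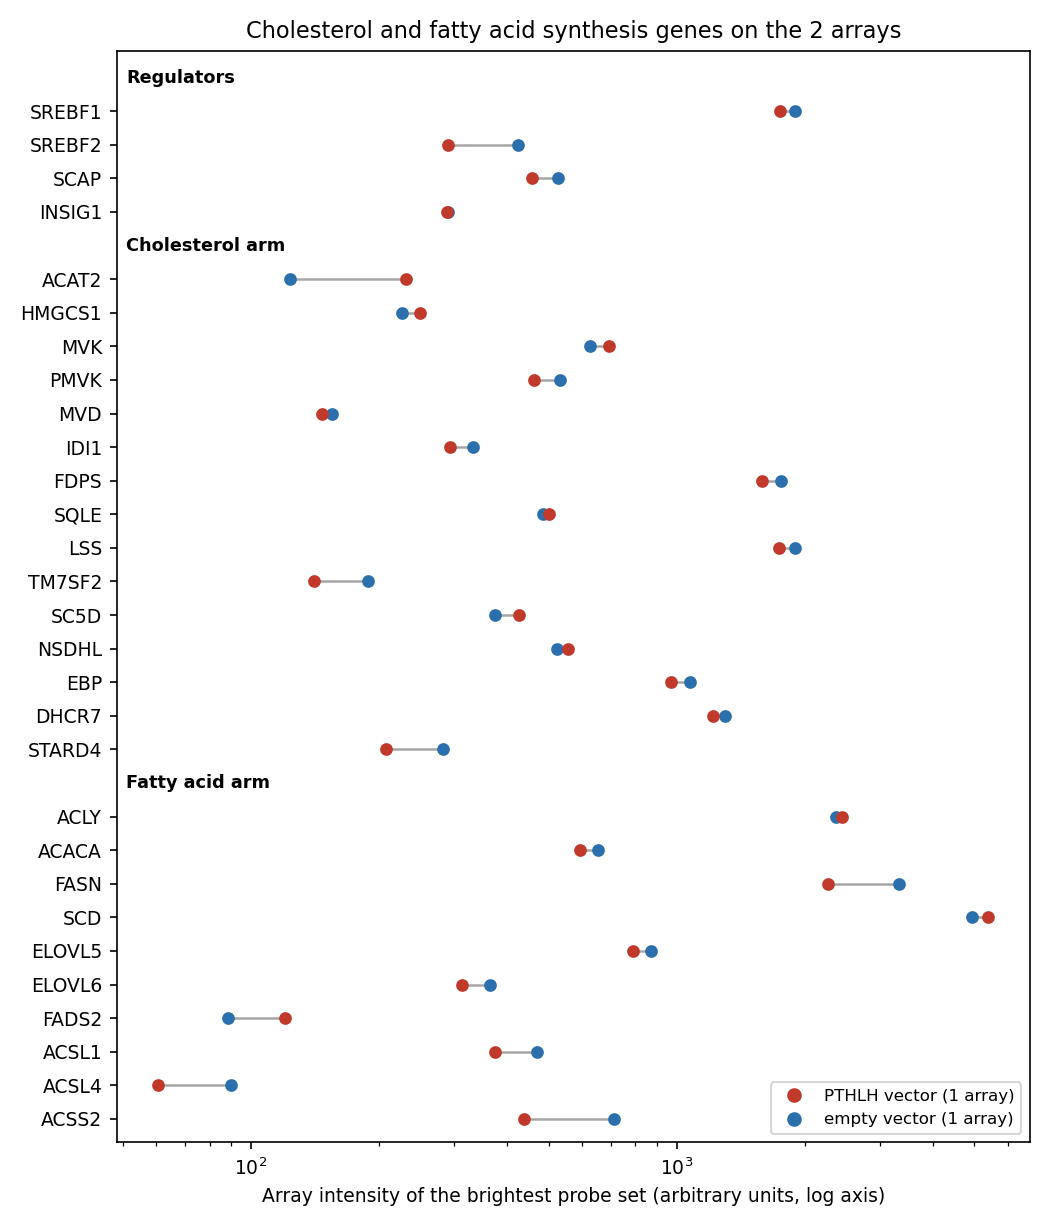
Intensity (arbitrary units, log axis) of the brightest probe set of each of the 29 measured genes, with the PTHLH array in red and the EV array in blue, 1 array each, joined by a line; only the 2 points of a row can be compared, since probe sets differ in brightness. The longest lines are those of ACAT2 (231 on the PTHLH array and 123 on the EV array), ACSS2 (437 with PTHLH and 713 with EV), ACSL4 (60.6 with PTHLH and 89.7 with EV), FASN (2270 with PTHLH and 3318 with EV) and SREBF2 (291 with PTHLH and 425 with EV).

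Of the regulators, none passed 1.5-fold, which 1.97% of all genes did upward and 3.52% downward. All 4 had values below 0, as 47.0% of all genes did, with a median of -0.16. By the second brightest probe set, which 3 of them have, the median was 0.02. SREBF2 had an intensity of 291 on the PTHLH array and 425 on the EV array, a log2 difference of -0.55. Its second probe set read 153 with PTHLH against 192 with EV (-0.32), and the remaining one, dimmer but above both medians, read 73.4 with PTHLH against 69.2 with EV (0.09). The 3 probe sets of SREBF2 therefore did not share a direction. SREBF1 had 1748 on the PTHLH array and 1899 on the EV array (-0.12), with 0.02 by its second probe set. SCAP, the escort protein that carries SREBPs to the Golgi, had 458 with PTHLH and 526 with EV (-0.20). INSIG1, the sterol-regulated anchor that retains SCAP and is itself a classical SREBP target, had 289 with PTHLH and 291 with EV (-0.01), and its other probe sets gave 0.07 and -0.46. The brightest probe sets of SREBF1, SCAP and INSIG1 differed by less than the probe set SD.

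Promoter windows are shown here for 4 genes that stand for the regulators and both arms: SREBF2, the regulator with the largest difference; ACSS2, the lower gene of the fatty acid arm; STARD4, the gene of the cholesterol arm with the largest downward difference; and SCD, a desaturase with a small difference above 0, within the probe set SD. Each window covers 250 bases before to 50 bases after an annotated start and comes from RefSeq on GRCh38.p14. Capitals mark every match, on either strand, to the sterol regulatory element TCACNCCAC, the E-box CACGTG, the NF-Y box CCAAT and the GC box GGGCGG, and matches can overlap. The windows are chr22:41832855-41833154 (plus strand) for SREBF2, chr20:34874739-34875038 (plus strand, 1 of 2 windows) for ACSS2, chr5:111512486-111512785 (minus strand) for STARD4 and chr10:100346983-100347282 (plus strand) for SCD.
SREBF2: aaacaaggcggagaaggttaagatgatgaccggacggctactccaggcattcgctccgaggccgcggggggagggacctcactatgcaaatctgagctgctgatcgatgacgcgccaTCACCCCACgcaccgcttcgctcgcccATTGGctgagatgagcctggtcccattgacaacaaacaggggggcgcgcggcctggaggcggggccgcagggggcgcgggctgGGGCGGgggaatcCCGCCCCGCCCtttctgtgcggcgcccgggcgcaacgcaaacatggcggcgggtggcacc
ACSS2: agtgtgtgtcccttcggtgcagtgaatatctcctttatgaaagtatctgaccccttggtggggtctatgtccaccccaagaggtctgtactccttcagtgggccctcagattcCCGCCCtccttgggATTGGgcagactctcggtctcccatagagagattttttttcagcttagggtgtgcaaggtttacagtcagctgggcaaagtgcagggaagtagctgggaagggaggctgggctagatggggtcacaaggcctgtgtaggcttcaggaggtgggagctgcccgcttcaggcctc
STARD4: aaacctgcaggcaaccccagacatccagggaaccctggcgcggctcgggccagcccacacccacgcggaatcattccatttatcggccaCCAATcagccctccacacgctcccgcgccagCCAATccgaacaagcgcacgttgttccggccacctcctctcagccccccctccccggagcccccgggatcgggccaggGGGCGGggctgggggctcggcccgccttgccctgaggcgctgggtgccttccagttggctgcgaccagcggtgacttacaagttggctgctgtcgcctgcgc
SCD: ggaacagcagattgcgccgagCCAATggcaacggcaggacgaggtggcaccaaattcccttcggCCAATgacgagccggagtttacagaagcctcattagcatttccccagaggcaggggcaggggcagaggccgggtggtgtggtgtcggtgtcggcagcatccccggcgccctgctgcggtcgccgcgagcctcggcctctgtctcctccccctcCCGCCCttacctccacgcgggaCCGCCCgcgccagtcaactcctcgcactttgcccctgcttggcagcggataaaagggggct

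The SREBF2 window held the sterol regulatory element letters upstream of an NF-Y box on the other strand, and 3 GC boxes. The ACSS2 window held 1 NF-Y box and 1 GC box, the STARD4 window 2 NF-Y boxes and 1 GC box, and the SCD window 2 of each. Of the 2 ACSS2 windows, the one with more kinds of match was shown, and the other held GC boxes only. Of the 34 listed genes, 30 matched a promoter in the table, with 44 windows, some of which overlap within a gene; ACAT2, FASN, SQLE and FDFT1 did not match. NF-Y box letters were found in 61.4% of these windows, against 34.6% of all 35116 windows and 34.5% of the windows of genes measured on the arrays. GC box letters were found in 81.8% of the listed genes' windows, against 45.0% of all and 56.7% of those of measured genes. E-box letters were found in 13.6% of them against 7.26% of all windows. The sterol regulatory element in this spelling was found in only 2 genes, SREBF2 and ACSL1, which is 4.55% of the windows against 1.13% of all. For the NF-Y box, the median log2 difference was -0.12 over 21 measured genes with it in any window and -0.20 over 5 without it. SREBF2 and ACSL1 had log2 differences of -0.55 and -0.32. A match describes the letters only.

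The cholesterol arm had a median log2 difference of -0.10 over 15 measured genes, with ACAT2 higher and none lower by 1.5-fold. In its mevalonate and isoprenoid steps, ACAT2 stood apart from the enzymes that follow it. ACAT2 had 231 on the PTHLH array and 123 on the EV array, a 1.87-fold difference (0.91 on the log2 scale) that ranked 50th from the top of the 12982 genes above both medians. It rests on a single probe set, of the suffix s, which marks probes that may match several transcripts. In GRCh38.p14 ACAT2 overlaps SOD2 and TCP1. SOD2, the mitochondrial superoxide dismutase, had 82.6 on the PTHLH array and 101 on the EV array (-0.30), TCP1 is not analysed here, and whether either adds to the ACAT2 signal was not tested. HMGCS1, the synthase that makes HMG-CoA, had 249 with PTHLH and 226 with EV (0.14), and MVK, mevalonate kinase, had 692 with PTHLH and 626 with EV (0.15), with its other probe sets at 0.22, 0.26 and -0.04. The following kinase and decarboxylase went slightly the other way, PMVK at 461 with PTHLH and 531 with EV (-0.20) and MVD at 147 with PTHLH and 155 with EV (-0.08). FDPS, which joins the isoprenoid units to farnesyl diphosphate, had 1587 with PTHLH and 1753.5 with EV (-0.14). IDI1, the isomerase between them, could not be given a direction, since its brightest probe set read 294 with PTHLH and 333 with EV (-0.18) and the next one 330 with PTHLH and 296 with EV (0.16). Its dimmer probe sets gave -0.50 and 0.09. Apart from ACAT2, the 6 genes lay between -0.20 and 0.15, within the probe set SD.

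In the steps from squalene to cholesterol, none of 7 genes passed 1.5-fold, and the log2 differences lay between -0.42 and 0.19 with a median of -0.10. SQLE, squalene epoxidase, which commits squalene to sterols, had 502 on the PTHLH array and 484 on the EV array (0.05), while its other probe sets gave -0.14, -0.40 and -0.06. LSS, the cyclase that makes lanosterol, had 1734 with PTHLH and 1891 with EV (-0.12). Its dimmer probe sets were lower, one at 45.5 with PTHLH and 82.9 with EV (-0.86) and the other at 31.2 with PTHLH and 45.9 with EV (-0.56), so LSS was below 0 by all 3 but past 1.5-fold only by one that is not its brightest. TM7SF2, a sterol C14 reductase, had 141 with PTHLH and 188 with EV (-0.42) by its only probe set. NSDHL, which removes the C4 methyl groups with its partners, had 554 with PTHLH and 522 with EV (0.09) and 0.19 by its second probe set, and SC5D, the C5 desaturase, had 426 with PTHLH and 374 with EV (0.19). EBP, the sterol isomerase, had 967 with PTHLH and 1076 with EV (-0.15), with all 4 probe sets between -0.26 and -0.15. DHCR7, which makes cholesterol from its last precursor on one branch, had 1214 with PTHLH and 1300 with EV (-0.10), and -0.18 by its second probe set. EBP, DHCR7 and LSS were the genes of this arm with more than 1 probe set and all of them below 0, and NSDHL was the one with all above 0. STARD4, a carrier that moves sterol between membranes, had 208 with PTHLH and 282 with EV (-0.44), on 1 probe set.

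**Figure D2:**
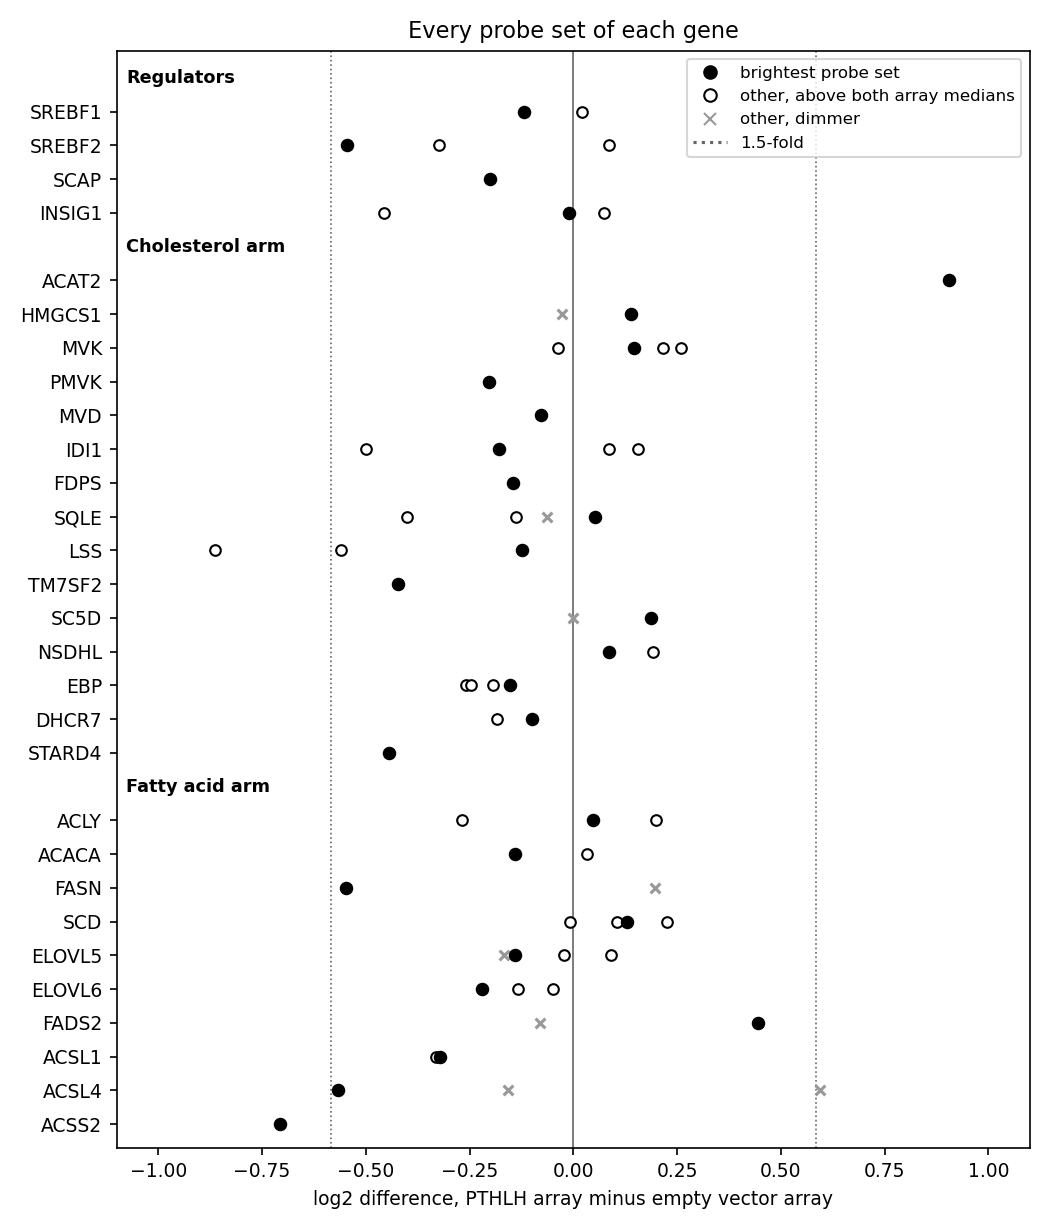
Log2 difference, PTHLH array minus EV array, of all 68 probe sets of the 29 genes; black points are the brightest probe set, open circles other probe sets above both array medians, crosses dimmer ones, and dotted lines 1.5-fold. Probe sets of ACSL1, EBP, DHCR7, ELOVL6 and LSS lie to the left of 0 and those of NSDHL to the right, whereas 15 genes have probe sets on both sides or at 0, and ACAT2 and ACSS2 have 1 probe set each.

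The fatty acid arm had a median log2 difference of -0.18 over 10 measured genes, with ACSS2 lower and none higher by 1.5-fold. Acetyl-CoA supply and palmitate synthesis held the largest difference of the arm. ACSS2 had 437 on the PTHLH array and 713 on the EV array, 1.63-fold lower (-0.71 on the log2 scale), which ranked 340th from the bottom of the 12982 genes above both medians, and it too rests on 1 probe set of the suffix s. ACLY, which makes the same cytosolic acetyl-CoA from citrate, had 2439 with PTHLH and 2361 with EV (0.05), with -0.27 and 0.20 by its other probe sets. Of the 2 enzymes that supply cytosolic acetyl-CoA, the one that uses acetate was therefore lower by its probe set, while ACLY lay within the probe set SD. ACACA, the carboxylase that makes malonyl-CoA, had 592 with PTHLH and 653 with EV (-0.14). FASN, the multienzyme that builds palmitate, had 2270 with PTHLH and 3318 with EV (-0.55), 1.46-fold lower and so just within the threshold; its second probe set, dim at 19.6 with PTHLH and 17.1 with EV, gave 0.20.

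Both measured desaturases had values above 0 and both measured elongases below 0, by small amounts. SCD, which puts the first double bond into stearate, had 5389 on the PTHLH array and 4929 on the EV array (0.13), with its other probe sets at 0.23, 0.11 and -0.01. FADS2, the delta-6 desaturase of polyunsaturated fatty acids, had 120 with PTHLH and 88.2 with EV (0.45), and a dim second probe set gave -0.08. ELOVL5, an elongase of polyunsaturated chains, had 791 with PTHLH and 872 with EV (-0.14), with its other probe sets at -0.02, 0.09 and -0.17. ELOVL6, which extends palmitate to stearate, had 314 with PTHLH and 365 with EV (-0.22), with its other probe sets at -0.05 and -0.13. Of these, only FADS2 and ELOVL6 exceeded the probe set SD.

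Both acyl-CoA synthetases, which activate fatty acids for use in lipids or oxidation, were on the low side within 1.5-fold. ACSL1 had 375 on the PTHLH array and 468 on the EV array (-0.32), and its second probe set gave nearly the same value, 71.0 with PTHLH and 89.3 with EV (-0.33). ACSL4, which prefers arachidonate, had 60.6 with PTHLH and 89.7 with EV (-0.57), 1.48-fold lower, and its dim probe sets, all below 8 units, gave -0.16 and 0.59. Of the genes beyond the probe set SD, ACSL1 had the closest match between its 2 probe sets above both medians. In GRCh38.p14, SREBF1, MVK, IDI1, ACACA and FADS2 also overlap another coding gene, and whether these add to the signals was not tested.

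Set side by side, the median of the cholesterol arm lay 0.08 above that of the fatty acid arm on the log2 scale. Values below 0 were found in 9 of 15 genes against 7 of 10. Of the genes above both array medians, 48.6% had values below 0. Beyond the probe set SD, 22.8% of them lay downward and 22.0% upward. By the brightest probe set, 12 of 15 genes of the cholesterol arm but 4 of 10 of the fatty acid arm lay within the probe set SD of 0, and 2 genes of the cholesterol arm (TM7SF2 and STARD4) against 5 of the fatty acid arm (FASN, ELOVL6, ACSL1, ACSL4 and ACSS2) lay below it. This split turned when each gene took the median of its probe sets, with 10 of 15 genes of the cholesterol arm and 8 of 10 of the fatty acid arm within the probe set SD, and by the second brightest probe set it was 6 of 9 in both arms. The range of the log2 differences was 1.35 in the cholesterol arm, which holds ACAT2, and 1.15 in the fatty acid arm. No test of a difference between the arms was run. By the median of a gene's probe sets, the gap between the arm medians was 0.01, and without probe sets of the suffix x or s it was 0.18, with the cholesterol arm at 0.026 and the fatty acid arm at -0.15.

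**Figure D3:**
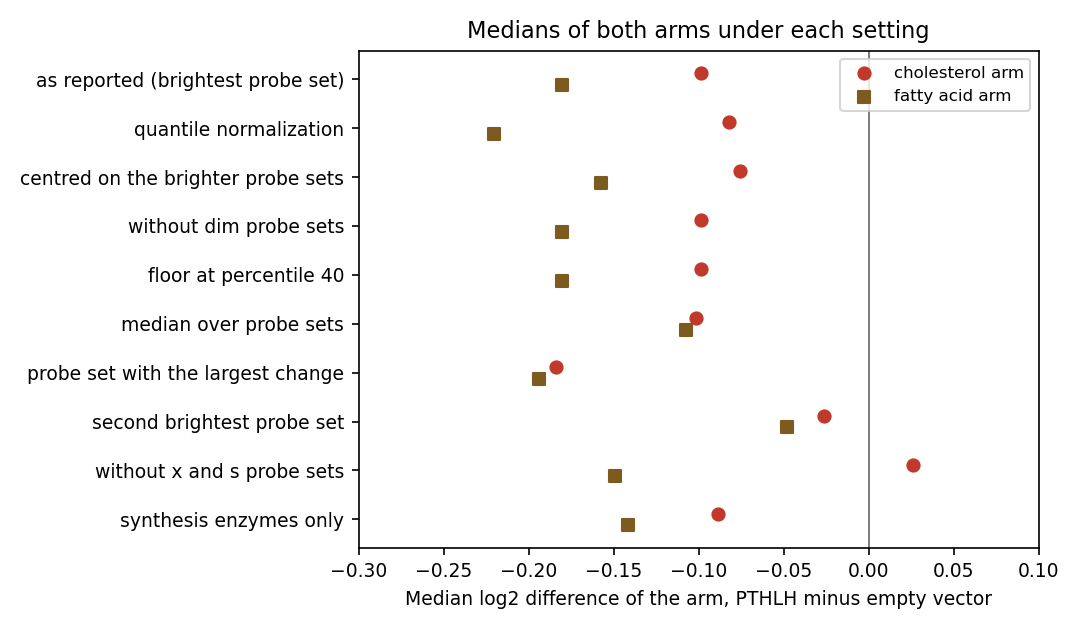
Median log2 difference, PTHLH minus EV, of the cholesterol arm (circles) and the fatty acid arm (squares) as reported and under each other way of processing the values. The fatty acid arm lies left of the cholesterol arm in every row, by 0.01 to 0.18, and the cholesterol arm lies right of 0 only without probe sets of the suffix x or s.

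Other genes of the same pathways were taken by their place in the pathway, in lists drawn up with earlier results of these data known. Of all genes, 47.0% were below 0, 1.97% at least 1.5-fold higher and 3.52% at least 1.5-fold lower, so the counts below are near that background. Of 16 further measured genes of sterol and fatty acid synthesis, none was at least 1.5-fold higher and 1 was lower, with 10 below 0 and a median of -0.09. The lower one was ELOVL4, an elongase of very long chains, with 42.7 on the PTHLH array and 71.5 on the EV array (-0.74). MSMO1, the C4 sterol oxidase that works before NSDHL, had 987 with PTHLH and 1284 with EV (-0.38), and HACD3, a dehydratase of chain elongation, had 1248 with PTHLH and 1056 with EV (0.24). Of 12 further genes of SREBP processing and sterol uptake, none passed 1.5-fold in either direction, 8 were below 0 and the median was -0.11. NPC2, which hands cholesterol out of the lysosome, had 1943 with PTHLH and 2597 with EV (-0.42), the HDL receptor SCARB1 had 515 with PTHLH and 630 with EV (-0.29), and LPIN1, a phosphatidate phosphatase, had 352 with PTHLH and 283 with EV (0.31, with probe sets between -0.25 and 0.31).

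**Figure D4:**
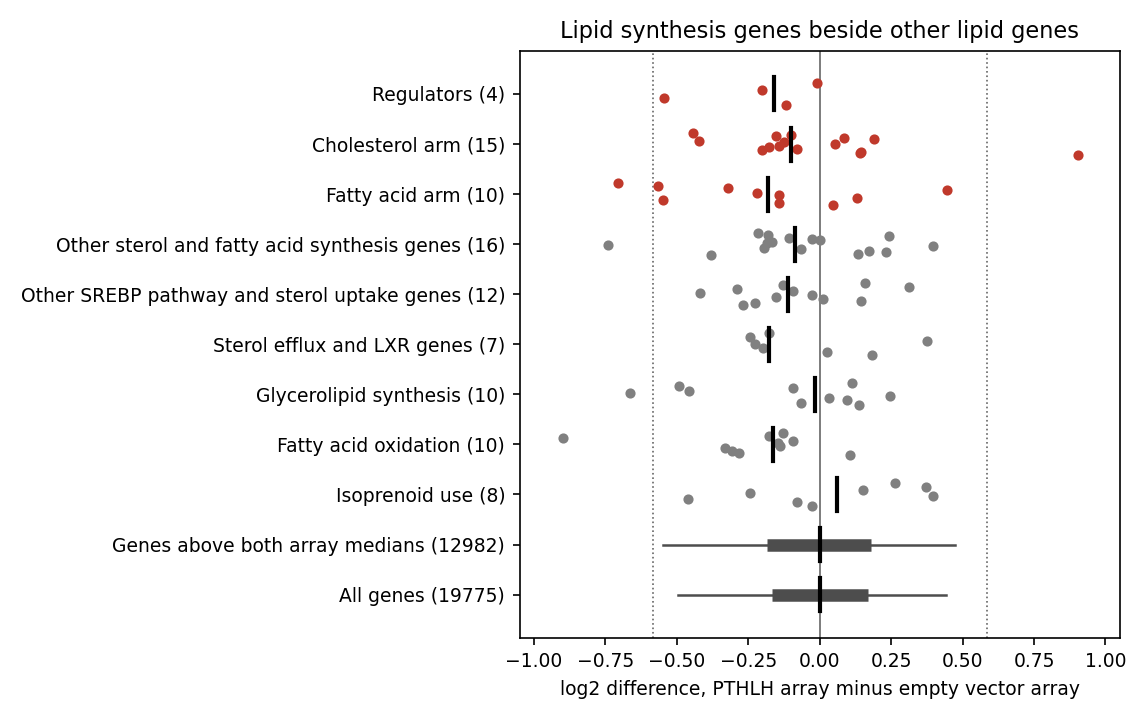
Log2 difference, PTHLH array minus EV array, of each measured gene (points) for the regulators and both arms in red and other lipid gene lists in grey, with the number of genes in parentheses, the median as a black line and 1.5-fold as dotted lines; for the backgrounds the thick bar joins the quartiles and the thin bar leaves out 5% at either end. The medians of the 3 red lists, -0.16, -0.10 and -0.18, lie left of 0, within the thick bar of the genes above both array medians (-0.18 to 0.18). That bar describes single genes and is no measure of how far medians of lists spread.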

How the data were processed

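Values of 2 arrays were used, 1 of Ca9-22 cells with a PTHLH vector and 1 with an empty vector, grouped by their characteristics labels. The authors deposited 1 intensity, not log-transformed, for each of 54675 probe sets; how they corrected background, normalized and combined probes was not stated in the texts read. The number of arrays limits the precision. Probe sets were named by the platform annotation, with symbols brought up to date through gene identifiers of GRCh38.p14. Only the 41097 with 1 symbol were used; 1801 had several and 11777 are unnamed here. A gene took the value of its brightest probe set. Intensities were log2-transformed without further scaling, and a change of 1.5-fold was counted. No test was run. The members and all lists were chosen with earlier results of these data known. All 34 members are named. Of each other list the text names the 3 genes with the largest absolute difference among those above the median of at least 1 array. Also named are the marker KRT5, SOD2, TCP1 and further genes of fatty acid oxidation. The counting was checked on simulated data. Alternatives were quantile normalization, centring, other choices of probe set, a floor at percentile 40, filters on dim or cross-hybridising probe sets, a 2-fold threshold and narrower arms. Python 3.11.15, numpy 2.4.6, pandas 2.3.3 and matplotlib 3.10.9 were used.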

Additional observations from a re-analysis of the deposited data

How the results depend on the processing

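Under quantile normalization, centring on the brighter probe sets, a floor at percentile 40, removal of dim probe sets and arms narrowed to synthesis enzymes, the median log2 difference stayed between -0.10 and -0.076 in the cholesterol arm, between -0.22 and -0.14 in the fatty acid arm and between -0.20 and -0.14 in the regulators, and no count moved by over 1.5 times. The floor and the removal of dim probe sets could not change these medians, since all 29 brightest probe sets lie above both array medians. Centring shifted every gene by the same amount. The choice of probe set mattered more. The second brightest probe set exists for 21 genes. With it the medians were -0.026 in the cholesterol arm, -0.048 in the fatty acid arm and 0.020 in the regulators. By it 12 genes were below 0, none was 1.5-fold higher and LSS alone was lower. Of the 10523 genes in all that have one, 228 were higher and 253 lower. Taking each gene's most changed probe set, the cholesterol arm was at -0.18 and the regulators at -0.33. By it 2 genes were higher (ACAT2 and ACSL4) and 2 lower (LSS and ACSS2). Of all 19775 genes, 689 were then higher and 984 lower. With the median over probe sets, 248 of all genes were higher and 444 lower. Without probe sets of the suffix x or s, 20 of the 29 genes were left, and ACAT2 and ACSS2 were lost. So 0 were higher and 0 lower, against 321 and 583 of the 17100 genes left in all, and the cholesterol arm turned to 0.026. At 2-fold, 0 of the 29 genes were higher and 0 lower, against 36 and 145 of all genes. Over 215 single-gene values under these settings, 193 moved by no more than the probe set SD and 22 by more. The floor and the dim filter could not move any of these values, and centring moved all alike. The count of 193 therefore says little of stability. ACAT2 and ACSS2 are among 8 genes with 1 probe set each, so the choices among probe sets could not move them. No paired analysis was possible because there is 1 array per condition. Depth does not apply to arrays. Dim probe sets, below the array median, carry the least information.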

Other observations

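Lipid genes beyond synthesis were mostly level too. Of all genes, 47.0% were below 0, 1.97% at least 1.5-fold higher and 3.52% at least 1.5-fold lower. Of 10 genes of glycerolipid synthesis and storage, none was at least 1.5-fold higher and 1 was lower, with 5 below 0, 5 above 0 and a median log2 difference of -0.02. The lower one was DGAT1, an enzyme of the last step of triglyceride synthesis, with 255 on the PTHLH array and 405 on the EV array (-0.67). DGAT2, which catalyses the same step, had 159 with PTHLH and 218 with EV (-0.46), and both its probe sets lay between -0.67 and -0.46. PLIN3, a coat protein of lipid droplets, had 991 with PTHLH and 1395 with EV (-0.49). These 3 genes are named as those with the largest differences of the 10.

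Of 10 genes of fatty acid oxidation, 9 were below 0, with a median of -0.16, and 1 was at least 1.5-fold lower, where 47.0% of all genes were below 0 and 3.52% at least 1.5-fold lower. That one was ETFDH, which passes electrons from oxidation to ubiquinone, with 17.0 on the PTHLH array and 31.7 on the EV array (-0.90), below the array median on the PTHLH array, and -0.33 by its other probe set. The acyl-CoA dehydrogenases ACADVL and ACADM had 960 with PTHLH and 1208 with EV (-0.33), and 399 with PTHLH and 493 with EV (-0.31). CPT2 had 209 with PTHLH and 254 with EV (-0.28), and -0.09 by its other probe set. HADHA, HADHB, ECHS1, PPARA and PPARD were below 0 by less than the probe set SD. Of these, HADHA, PPARA and PPARD also had probe sets above 0, up to 0.12, 0.23 and 0.72. CPT1A, the gene above 0 (0.11), had a lowest probe set at -0.19. Of 7 genes of sterol efflux and the LXR receptors, none passed 1.5-fold; CYP27A1, a sterol hydroxylase, had -0.25, SOAT1, which esterifies cholesterol, had -0.23, and the receptor gene NR1H3 had 0.18. Of 8 genes that use isoprenoids, none passed 1.5-fold and 4 were below 0; PGGT1B, a subunit of a protein prenylation enzyme, had 0.40 (-0.12 by its lowest probe set), COQ2, of ubiquinone synthesis, had 0.37, and FNTB, a farnesyltransferase subunit, had -0.46.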
